A study of Mus musculus with 2 samples.

Results

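A set of 9 mature miRNAs that are induced or abundant when T cells are activated was followed in CD4+ T cells of the intestinal lamina propria and of the spleen: miR-155-5p, miR-146a-5p, miR-146b-5p, miR-21a-5p, miR-132-3p, miR-212-3p, miR-221-3p, miR-222-3p and miR-210-3p. They were chosen by their miRBase accessions, by which the array table names its rows, and all 9 were found among its 739 rows. The question of the study was whether T cells of these 2 sites carry different miRNA profiles. One group was CD4+ T cells from the lamina propria, the connective layer under the gut epithelium, and the other was CD4+ T cells from the spleen, a lymphoid organ. All cells came from female C57BL/6 mice aged 10 weeks and heterozygous for Il10 (IL-10 +/-), the gene of an anti-inflammatory cytokine, so no wild-type animals stand in this comparison. Each site was measured on 1 array. Neither the number of mice per array nor any pooling is stated in the labels. Cells of both sites were isolated on magnetic beads, while collagenase digestion is described for the lamina propria only, so site and dissociation cannot be told apart.

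A miRNA is a short RNA that guides an Argonaute protein to messenger RNAs, mainly by pairing of its seed, bases 2 to 8 from the 5′ end, and lowers their translation and stability. In T cells, antigen receptor and cytokine signals switch on several miRNA genes. miR-155 promotes effector responses and represses Socs1, an inhibitor of cytokine signalling. miR-146a is induced by NF-κB and represses Traf6 and Irak1, which act upstream of NF-κB, so it closes a negative feedback loop. miR-21 represses Pdcd4 and is abundant in effector and memory cells, but also in many non-lymphoid cells.

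The mature sequences show which members can act on the same targets and which may be hard to tell apart by hybridisation. They are from RefSeq (GRCm38.p6, 9 of 9 matched by name), written 5′ to 3′ with the seed in capitals.
miR-155-5p: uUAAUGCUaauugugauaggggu
miR-146a-5p: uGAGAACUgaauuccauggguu
miR-146b-5p: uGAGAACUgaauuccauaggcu
miR-21a-5p: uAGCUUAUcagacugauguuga
miR-132-3p: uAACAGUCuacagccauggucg
miR-212-3p: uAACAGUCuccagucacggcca
miR-221-3p: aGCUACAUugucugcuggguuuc
miR-222-3p: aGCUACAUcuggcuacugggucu
miR-210-3p: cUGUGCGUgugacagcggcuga

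The set holds 3 pairs that share a seed: miR-146a-5p with miR-146b-5p, miR-132-3p with miR-212-3p, and miR-221-3p with miR-222-3p. The miR-146 pair is the closest, with 20 of 22 bases the same and the differences G18A and U21C (miR-146a-5p first, positions counted from the 5′ end). miR-132-3p and miR-212-3p share 17 of 22 bases at the same positions, and miR-221-3p and miR-222-3p share 11 of 23. With gaps allowed, both pairs are 5 substitutions, insertions or deletions of a single base apart, against 2 for the miR-146 pair. Counted in the same way, miR-21a-5p lies 4 from its nearest other mature mouse miRNAs, miR-3965 and miR-3967. No other mature mouse miRNA in the RefSeq table carries the seed of miR-155-5p or of miR-210-3p. The seed of miR-21a-5p is also that of miR-21c, and that of miR-221-3p and miR-222-3p is also that of miR-1928. Whether a probe of one miR-146 member binds the other was not tested.

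The positions that follow are those of the mature miRNAs in GRCm38.p6. miR-155-5p (MIMAT0000165) is encoded at chr16:84714143-84714165 on the plus strand, within the span of the long non-coding RNA gene Mir155hg. miR-21a-5p (MIMAT0000530) is at chr11:86584120-86584141 on the minus strand, within the span of the protein-coding gene Vmp1. miR-146a-5p (MIMAT0000158) is at chr11:43374435-43374456 on the minus strand and miR-146b-5p (MIMAT0003475) at chr19:46342790-46342811 on the plus strand, so the miR-146 pair comes from different chromosomes. miR-212-3p (MIMAT0000659), at chr11:75173443-75173464, and miR-132-3p (MIMAT0000144), at chr11:75173723-75173744, start 280 bases apart on the plus strand. miR-221-3p (MIMAT0000669), at chrX:19146307-19146329, and miR-222-3p (MIMAT0000670), at chrX:19146901-19146923, start 594 bases apart on the minus strand. miR-210-3p (MIMAT0000658) is at chr7:141221407-141221428 on the minus strand.

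The deposited values are linear intensities in arbitrary units, and a blank stands where no value is given. All 9 miRNAs had a value on both arrays, as did 353 of the 739 rows (47.8%). The lowest listed intensity was 2.88 in lamina propria and 1.39 in spleen, and the summed intensity was 182481 and 136232. With n = 1 per tissue no value has an error, no difference has a replicate check, and no test was possible, so the ratios below describe these 2 arrays. The number of arrays limits the precision. Markers of T cells and of other cell types could not be looked up, because no name is paired with the other accessions here, so the purity of the 2 preparations was not assessed.

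Of the 9 miRNAs, miR-21a-5p was the one at least 2-fold higher in lamina propria, miR-155-5p and miR-222-3p were lower there by more than 2-fold, and the other 6 were within 2-fold. Over all 353 shared rows, 57 (16.1%) were higher in lamina propria by 2-fold or more and 91 (25.8%) lower. The 1 and 2 of 9 members thus lie near the shares of the shared rows. The 9 fell into a brighter set of 5 (miR-155-5p, miR-146a-5p, miR-146b-5p, miR-21a-5p and miR-221-3p), with intensities of 18.5 to 491 in lamina propria and 26.7 to 365 in spleen, and a dim set of 4. The brighter 5 lay in the upper 50% of the 353 shared rows by mean log2 intensity. The dim 4 (miR-132-3p, miR-212-3p, miR-222-3p and miR-210-3p) had 3.48 to 5.35 in lamina propria and 2.88 to 7.24 in spleen. All 4 therefore lay within 2 times the lowest listed value of the lamina propria array.

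**Figure D1:**
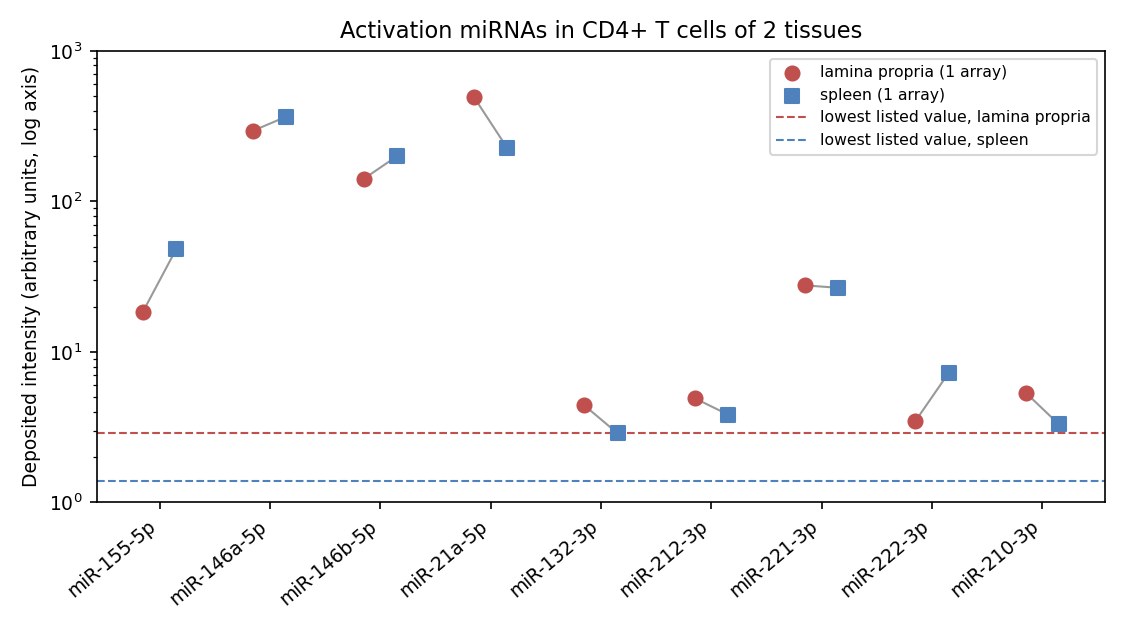
Deposited intensity (arbitrary units, log axis) of each activation miRNA in CD4+ T cells of lamina propria (red circles) and spleen (blue squares), 1 array each, with the lowest listed value of each array as a dashed line. miR-21a-5p stands at 491 in lamina propria and 226 in spleen, miR-155-5p at 18.5 and 48.0, and the lamina propria values of miR-132-3p, miR-212-3p, miR-222-3p and miR-210-3p lie within 2 times the lamina propria line.

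miR-155-5p, the effector-promoting member, was lower in the gut cells. Its intensity was 18.52 in lamina propria and 47.99 in spleen, a log2 ratio of -1.37, or 2.59-fold lower in lamina propria. In a pool of cells, fewer cells that carry a miRNA and less of it in each cell cannot be told apart. The spleen signal was 34.5 times the lowest value listed on its array, and the lamina propria signal was 6.43 times the lowest there. A ratio of this size was common on these arrays: among the 177 rows in the upper 50% by level, 73 (41.2%) had a lamina propria value lower by 2-fold or more, and 62 had a lower ratio than miR-155-5p. The ratio was below 0 under each of the 5 other scalings run, between -1.05 and -0.65, and passed 2-fold under 2 of them. Across those 5 scalings, 24.9% to 35.6% of the 177 rows were lower by 2-fold or more.

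The pair miR-146a-5p and miR-146b-5p stayed within 2-fold between the sites, as deposited and under the 5 other scalings. miR-146a-5p had 294.88 in lamina propria and 365.49 in spleen, a log2 ratio of -0.31. miR-146b-5p had 140.97 in lamina propria and 199.13 in spleen, a log2 ratio of -0.50. Both were lower in lamina propria as deposited, by 1.24-fold and 1.41-fold, but the sign of miR-146a-5p turned under all 5 other scalings (0.06 to 0.45) and that of miR-146b-5p under quantile normalization (0.41) and removal of the trend with level (0.43). As shares of summed intensity both were lower in lamina propria. The share of miR-146a-5p was 0.162% in lamina propria and 0.268% in spleen, and that of miR-146b-5p 0.0773% and 0.146%. Both signals were well above the lowest listed values, at 102 and 48.9 times in lamina propria and 263 and 143 times in spleen. The log2 ratios of the pair, which share a seed and differ at 2 bases, lay 0.19 apart as deposited.

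miR-21a-5p went the other way. This repressor of Pdcd4 had an intensity of 490.96 in lamina propria and 226.22 in spleen, a log2 ratio of 1.12, or 2.17-fold higher in lamina propria. It took 0.269% of the summed intensity in lamina propria and 0.166% in spleen. Among the 177 rows in the upper 50% by level, 27 (15.3%) were at least 2-fold higher in lamina propria, and 21 had a higher ratio than miR-21a-5p. It was at least 2-fold higher under each of the 5 other scalings, with log2 ratios of 1.49 to 1.83. Under these scalings 22.0% to 24.9% of the 177 rows were at least 2-fold higher. None of them set the summed intensities of all listed rows equal, and the 2 shares of summed intensity above differ by less than 2-fold. Epithelial, stromal and myeloid cells are also known to express miR-21, and the part of such cells in the lamina propria value was not tested.

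The opposite ratios of miR-21a-5p and miR-155-5p can be set against each other without a choice of scale, because a single factor between the arrays cancels. The log2 ratio of miR-21a-5p lay 2.49 above that of miR-155-5p, a 5.62-fold difference. It was 2.85 with quantile-normalized values, 2.48 once the trend with level was removed and 2.11 with 10 added to every value. Among the 177 rows in the upper 50% by level, the quartiles of the deposited log2 ratio were -1.64 and 0.55, so wide gaps between rows were common. The log2 ratio of miR-21a-5p lay 1.43 above that of miR-146a-5p and 1.62 above that of miR-146b-5p. miR-155-5p lay 1.06 below miR-146a-5p and 0.88 below miR-146b-5p. Within the brighter 5, miR-21a-5p thus had the highest ratio and miR-155-5p the lowest, with the miR-146 pair and miR-221-3p between them. The same 2 miRNAs held these ends with quantile-normalized values and once the trend with level was removed, the 2 scalings that can alter the order.

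**Figure D2:**
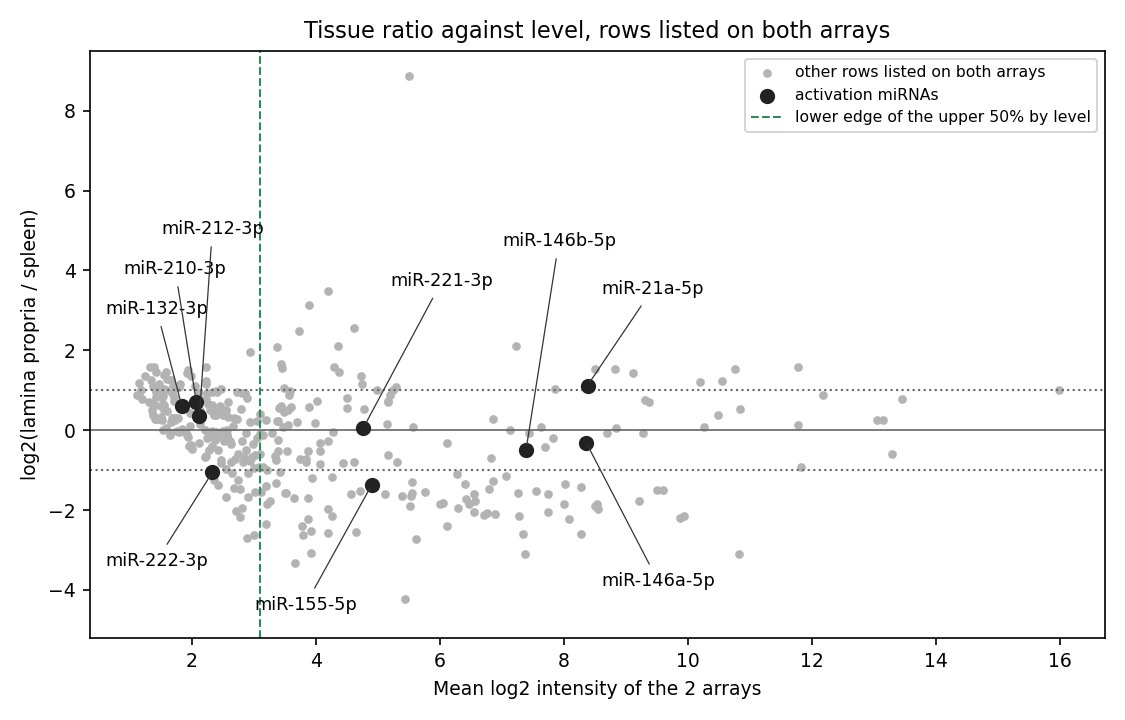
log2 ratio of lamina propria to spleen intensity against the mean log2 intensity of both arrays for the 353 rows listed on both, with the 9 activation miRNAs in black and labelled. Dotted lines mark 2-fold in either direction and the dashed line the lower edge of the upper 50% by level. Many rows of middle and high level lie below the lower dotted line, miR-155-5p among them, while miR-21a-5p lies above the upper one.

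miR-221-3p and miR-222-3p are made from neighbouring genes and both repress the cell cycle inhibitor Cdkn1b. miR-221-3p had 27.65 in lamina propria and 26.66 in spleen, a log2 ratio of 0.05. miR-222-3p had 3.48 in lamina propria and 7.24 in spleen, a log2 ratio of -1.06, or 2.08-fold lower in lamina propria. The log2 ratios of the pair differed by 1.11 (miR-221-3p minus miR-222-3p) as deposited, by 1.65 with quantile-normalized values, by 1.84 once the trend was removed and by 0.39 with 10 added to every value. The lamina propria value of miR-222-3p was 1.21 times the lowest one listed there, so the size of this difference rests on a signal near that limit. The ratio of miR-222-3p lay between -1.24 and -0.63 under the 5 other scalings and passed 2-fold under 2 of them. Of the 353 shared rows, 89 had a lower ratio than miR-222-3p.

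miR-132-3p and miR-212-3p, also from neighbouring genes, are induced through the transcription factor CREB. miR-132-3p had 4.41 in lamina propria and 2.88 in spleen, a log2 ratio of 0.61. miR-212-3p had 4.92 in lamina propria and 3.84 in spleen, a log2 ratio of 0.36. Both were within 2-fold as deposited, and both lay within 3 times the lowest listed value of either array. miR-210-3p, which is induced in low oxygen by hypoxia-inducible factors, was as dim. It had 5.35 in lamina propria and 3.30 in spleen, a log2 ratio of 0.70. With 10 added to every value, the 3 log2 ratios were 0.16 for miR-132-3p, 0.11 for miR-212-3p and 0.21 for miR-210-3p. Such ratios were frequent among the shared rows of any level: 22 other rows lay within 0.1 of the ratio of miR-132-3p, 27 of miR-212-3p and 22 of miR-210-3p. The lowest listed value was 2.88 in lamina propria and 1.39 in spleen. The spleen value of miR-132-3p equalled 2.88, so no listed lamina propria value could put its deposited ratio below 0. For miR-212-3p and miR-210-3p the room below 0 was small. Each of the 3 had a ratio above 0 under the 5 other scalings. Of these, 3 add a positive constant to every log2 ratio and could not turn it. miR-132-3p reached 2-fold under 2 scalings, miR-210-3p under 3 and miR-212-3p under 0, and all of these add such a constant. With quantile-normalized values and once the trend was removed, miR-132-3p had 0.31 and 0.12, and miR-210-3p 0.54 and 0.40. How many of all 353 shared rows reached 2-fold under these scalings was not counted.

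As a set, the activation miRNAs had no common direction. Of all 9, 5 had a log2 ratio above 0 and 4 below, with a median of 0.05 beside 0.01 for the 353 shared rows. Of the 5 in the upper 50%, 1 was 2-fold or more higher (miR-21a-5p), 1 was 2-fold or more lower (miR-155-5p) and 3 were within 2-fold, beside 15.3% and 41.2% of the 177 rows, and their median was -0.31 beside -0.59 for the 177 rows. Their summed intensity was 991 in lamina propria and 883 in spleen over all 9, 1.12 times as much. Without miR-21a-5p the sum of the other 8 was 500.2 in lamina propria and 657 in spleen, or 1.31-fold lower in lamina propria. The 9 together took 0.543% of the summed intensity in lamina propria and 0.648% in spleen.

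The sign of the set's median depended on the scale. Equal medians over the shared rows added 0.43 to every log2 ratio and equal 75th percentiles over the same rows 0.39. Equal totals of all rows listed on each array, without its 10 brightest, added 0.37. The median of the brighter 5 was then 0.12, 0.08 and 0.06, and it was 0.41 with quantile-normalized values and 0.43 once the trend was removed. Those of the 177 rows were -0.16, -0.20 and -0.22 under the first 3, 0 with quantile-normalized values and -0.12 once the trend was removed. The median of the brighter 5 lay above that of the 177 rows as deposited and under the last 2 scalings; the first 3 cannot alter that gap. Of the individual members, miR-21a-5p, miR-221-3p, miR-132-3p, miR-212-3p and miR-210-3p kept a ratio above 0 on these scales, and miR-155-5p and miR-222-3p one below 0. The first 3 scalings only raise a ratio, so they could not turn one above 0. miR-132-3p, miR-212-3p and miR-210-3p also had little or no room below 0, as the lowest listed value was higher in lamina propria (2.88) than in spleen (1.39). Equal summed intensities of all listed rows were not run. As shares of summed intensity, miR-221-3p and miR-212-3p were lower in lamina propria, while miR-21a-5p, miR-132-3p and miR-210-3p were higher. The shares of miR-155-5p, miR-146a-5p, miR-146b-5p and miR-222-3p were also lower there.

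**Figure D3:**
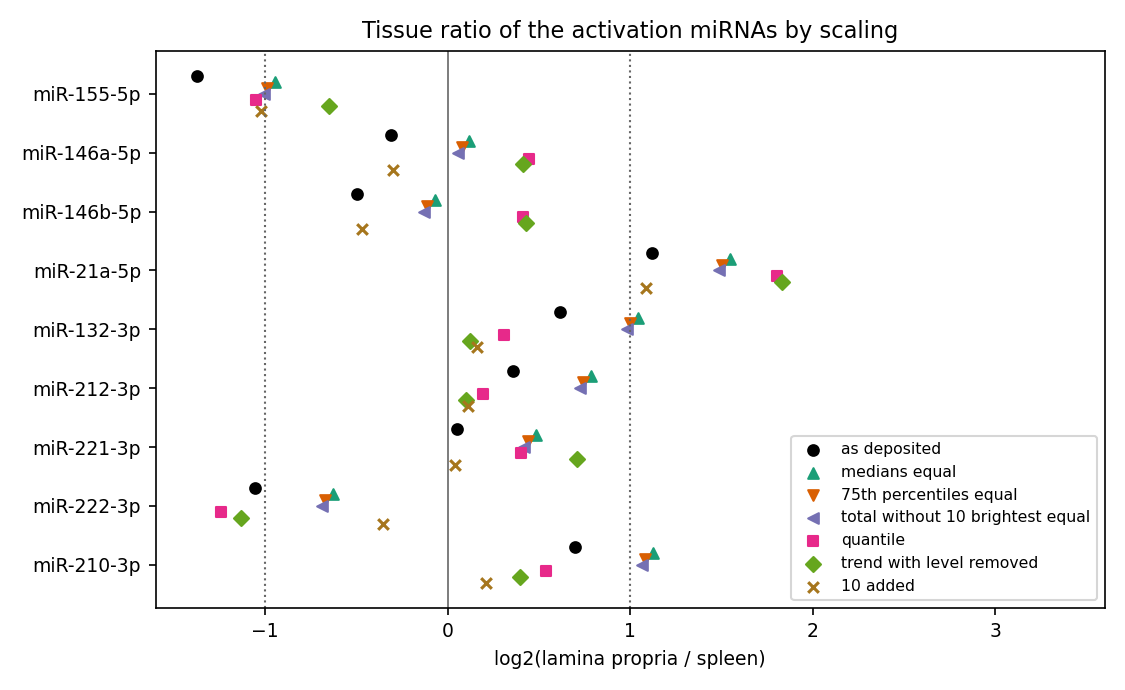
log2 ratio of lamina propria to spleen intensity for each activation miRNA as deposited, under 5 other scalings and with 10 added to every value, with dotted lines at 2-fold. All markers of miR-21a-5p lie to the right of the upper dotted line and all of miR-155-5p to the left of 0, while those of miR-146a-5p and miR-146b-5p lie on both sides of 0.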

How the data were processed

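The authors deposited 1 linear intensity value per row and array. Per the labels' protocols, RNA was extracted with a miRNA isolation kit and labelled with Hy5. Neither labels nor file state the background subtraction, the rule behind blanks or the scaling. Rows are named by miRBase accession. Names of the 9 members came with the rule that chose them, and 0 accessions were paired with names in the reference tables. The 8 other lists planned by name (other arms, T cell states and cell type markers) were therefore not used, and neither was the planned naming of rows with similar ratios, which were only counted. The members and lists were chosen with earlier results of these data known. All members are named in the text.

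Log2 ratios (lamina propria over spleen) were computed on the deposited scale with no pseudocount, and 2-fold counts used the upper 50% of shared rows by mean log2 level. Alternatives were 5 scalings, 1 or 10 added, other filters (all shared rows, upper 25%), and 1.5-fold and 4-fold thresholds. The first 3 scalings set equal the medians or 75th percentiles of the shared rows, or the totals of all listed rows without the 10 brightest. The other 2 quantile-normalized the log2 values of the shared rows or removed a lowess curve, fraction 0.5. Added after the data were seen was one lowest value: spleen values under 2.88 left out. Python 3.11.15, numpy 2.4.6, pandas 2.3.3 and statsmodels 0.14.6 were used. The counting was tested on simulated data.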

Additional observations from a re-analysis of the deposited data

How the results depend on the processing

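With 1 array per tissue, no error exists for any value, no replicate could be left out, and signal over background is unknown. No paired analysis was possible because only 1 sample stands for each tissue. The median log2 ratio of the members in the upper 50% was -0.310 as deposited. It turned to 0.119 with medians, 0.0759 with 75th percentiles and 0.0581 with trimmed totals set equal, 0.410 with quantile-normalized values, 0.431 after trend removal, and 0.0526 over all shared rows, where 9 members enter in place of 5. It was -0.309 with 1 added and -0.301 with 10 added. The count at least 2-fold higher was 1 (miR-21a-5p) in each setting run except the 4-fold threshold, where it was 0. The count at least 2-fold lower, 1 as deposited (miR-155-5p), was 0 with medians or 75th percentiles set equal, after trend removal, in the upper 25%, which does not hold miR-155-5p, and at 4-fold. It was 2 over all shared rows, with miR-222-3p added. The first 3 scalings add 1 constant to every log2 ratio, and the cause of the changes under the other 2 was not tested.

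miR-146a-5p changed sign, from -0.310 as deposited, to 0.119, 0.0759 and 0.0581 with medians, 75th percentiles and trimmed totals set equal, 0.445 after quantile normalization and 0.410 after trend removal. miR-146b-5p, -0.498 as deposited, changed sign to 0.410 after quantile normalization and 0.431 after trend removal. The other 7 members kept their sign in all 9 settings run for single members. miR-155-5p ranged from -1.37 to -0.65 and was at least 2-fold lower in 6. miR-21a-5p ranged from 1.08 to 1.83 and was at least 2-fold higher in 9. No setting made the summed intensities of all listed rows equal. As shares of summed intensity, miR-221-3p (0.0152% in lamina propria, 0.0196% in spleen) and miR-212-3p (0.00270% and 0.00282%) were lower in lamina propria. Those of miR-21a-5p, miR-132-3p and miR-210-3p were higher there, and those of miR-155-5p, miR-146a-5p, miR-146b-5p and miR-222-3p lower. Leaving out spleen values under 2.88 removed 0 of the 9 members. This setting, counted among the 9 settings, could not move a member's ratio, because each deposited ratio uses only the values of its own row.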
